A study of Danio rerio with 6 samples.

Results

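The genes of the voltage-gated ion channels were examined in whole zebrafish larvae exposed to PCB-11 or to its vehicle. They were taken from the gene symbols of the count tables as every row whose symbol begins with scn and a digit, cacna, cacnb, cacng or kcn. This gave 93 of 14791 genes, of which 14 belonged to the sodium, 20 to the calcium and 59 to the potassium family. Of the 93 genes, 84 passed the filter on low counts and were tested (13 sodium, 17 calcium and 54 potassium), and 9 did not. The symbol rule reaches beyond the strict meaning of the name. It takes in subunits that form no pore, and among the potassium genes the inward rectifiers (kcnj), the background channels with a pair of pore domains (kcnk) and channels opened by calcium (kcnn, kcnma).

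Voltage-gated channels open when the membrane potential changes. Sodium channels start the action potential in nerve and muscle, calcium channels turn it into calcium entry for transmitter release, contraction and gene regulation, and potassium channels end it and set the resting potential. Each pore subunit works with accessory subunits that alter its gating or its delivery to the membrane. Many of the genes are present as a pair of copies in zebrafish, with the suffixes a and b.

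The PCB-11 group held 3 pools and the DMSO group 3 pools, each of 18 to 20 whole AB strain animals at 96 hours post fertilization (hpf). PCB-11 is 3,3'-dichlorobiphenyl, given at 4500 µg/L in DMSO. Animals of both groups had been dechorionated by hand at 24 hpf and kept in vials of 5 in 0.05% v/v DMSO from then on. Poly(A) RNA was sequenced with a directional library kit, and the deposited values are read counts per gene.

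Counts in genes ranged from 15705712 to 20479751 in the PCB-11 pools and from 17811432 to 19681843 in the DMSO pools. PCB-11 replicate 2 stood apart from the other pools on the first principal component, with a score of -36.9 against -9.31 to 16.4, and held 39.1% of its reads outside genes against 31.4% to 35.0% in the others. On the second component PCB-11 replicate 3 stood apart, at -27.2 against -5.72 to 18.5. Neuron markers were detected for 16 of the 17 matched genes of their list (gap43 was listed at 0 in all pools), and skeletal muscle markers for 20 of 20. The summed level of the neuron markers was 3280 to 5039 CPM (library-scaled counts) in PCB-11 and 3446 to 3695 CPM in DMSO pools, and that of the muscle markers was 63509 to 97288 CPM in PCB-11 and 72512 to 79974 CPM in DMSO pools. Among markers of other tissues edgeR called no gene at an adjusted p under 0.05, where it called 0.0463% of all genes. All 14 lens markers had higher values in PCB-11 (11 at an unadjusted p under 0.05, against 5.80% of all genes). So did 10 of 12 glia markers (4 at that level). All 10 intestine markers had lower values (5 at that level, against 6.04% of all genes). So did 9 of 11 macrophage markers (1 at that level). Photoreceptor markers split into 10 lower (4 at that level) and 6 higher (1 at that level). Heart muscle markers split into 5 higher and 4 lower, none at that level. In pools of whole animals, fewer cells of a type and less RNA per cell cannot be told apart.

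No channel gene differed between the groups at the threshold used, an adjusted p under 0.05 over all 12960 genes tested. EdgeR's quasi-likelihood test called 0 of the 84 channel genes, where it called 0.0463% of all genes. DESeq2 also called 0 of the 84, where it called 0.849% of all genes. Limma-voom called 0 of all 12960 genes, so its 0 of the 84 tells nothing about the channel genes in particular. The smallest adjusted p among the channel genes was 0.308 in edgeR, for cacng6a. At an unadjusted p under 0.05, edgeR had 8 channel genes (9.52% of those tested), against 11.8% of all genes. Of these 8, 1 was higher in PCB-11 (1.19%, against 5.80% of all genes) and 7 were lower (8.33%, against 6.04%). The PCB-11 pools lay above all DMSO pools in 4 channel genes (4.76%, against 10.0% of all genes) and below them in 9 (10.7%, against 9.35%).

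The family medians lay close to that of all genes. The median log2 fold change, PCB-11 minus DMSO, was 0.08 over 13 sodium, -0.02 over 17 calcium and -0.10 over 54 potassium channel genes, and 0.00 over all genes tested. On leaving out single pools the sodium median ran from -0.03 to 0.14, negative without PCB-11 replicate 1 or 2, and the calcium median from -0.06 to 0.14, positive without PCB-11 replicate 3 or DMSO replicate 2. The potassium median ran from -0.15 to -0.04. The fold changes of 34 of the 84 channel genes (40.5%) turned sign when some single pool was left out, against 35.9% of all genes. Values were higher in PCB-11 for 7 of 13 sodium, 7 of 17 calcium and 19 of 54 potassium genes, against 50.2% of all genes. The 84 fold changes ran from -0.78 for kcnk13a, a background potassium channel gene, to 0.39 for kcnip1b. Neither end passed the test, and kcnk13a, named here after its values were seen, rested on 20, 8 and 13 counts in PCB-11 replicates 1, 2 and 3 and 22, 35 and 15 counts in the DMSO replicates.

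**Figure D1:**
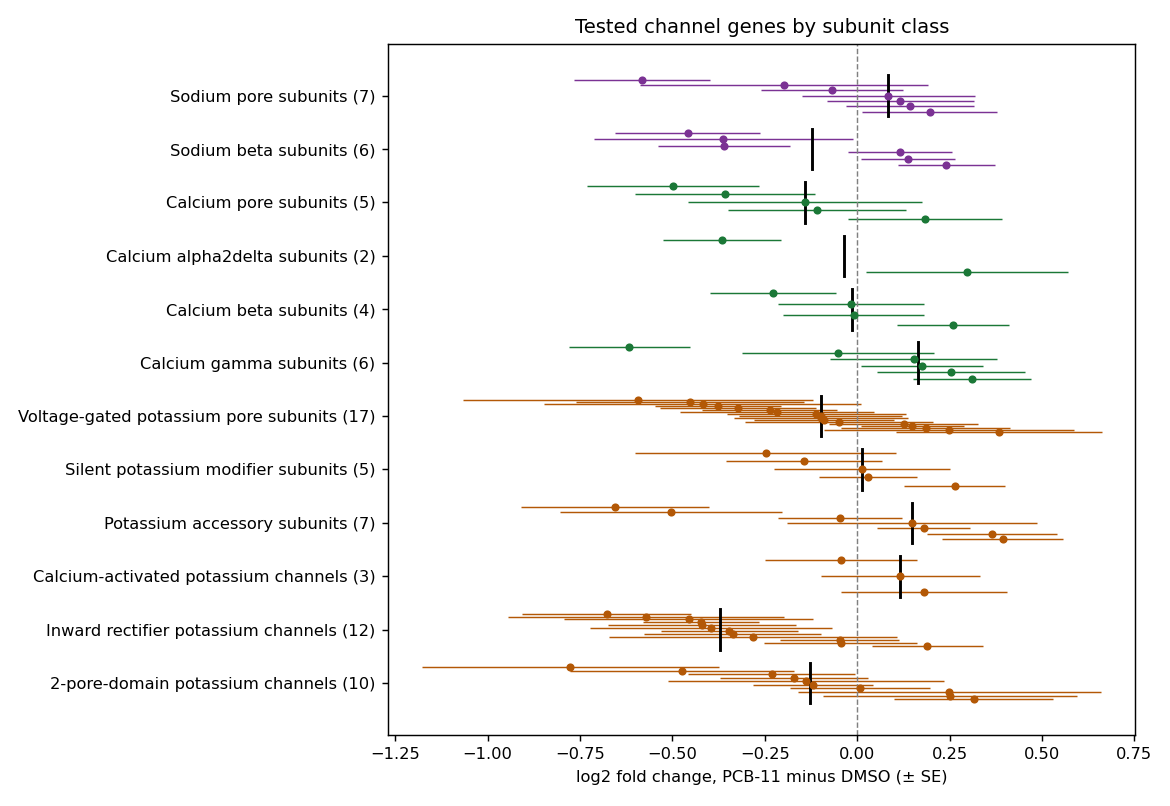
Log2 fold changes (PCB-11 minus DMSO, with standard errors) of the 84 tested channel genes, one point per gene, by subunit class with the number of genes in parentheses; black bars are class medians and colours mark the sodium, calcium and potassium families. Points lie on both sides of 0 in every class, and the lowest class median is -0.37, over the 12 inward rectifiers.

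The precision of the comparison was lower for channel genes than for most genes. The median standard error of the log2 fold change was 0.21 for the channel genes and 0.14 for all genes. The 95% interval of the fold change, taken gene by gene, stayed within a 2-fold change in either direction for 64 of the 84 channel genes (76.2%), against 90.8% of all genes. By family this held for 11 of 13 sodium, 16 of 17 calcium and 37 of 54 potassium genes.

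Among the pore subunits of the sodium channels, scn4ab was the one with the smallest p. It encodes a sodium channel of skeletal muscle. The level of scn4ab was 21.8, 13.6 and 24.2 CPM in PCB-11 replicates 1, 2 and 3, against 30.8, 29.9 and 28.9 CPM in the DMSO replicates. All 3 PCB-11 pools were lower than all DMSO pools, with replicate 2 lowest (log2 fold change -0.58 ± 0.18 SE, 95% interval -0.999 to -0.17, edgeR adjusted p = 0.341). Its duplicate scn4aa, at 1.84 ± 0.24 CPM in PCB-11 and 1.74 ± 0.27 CPM in DMSO (SD, n = 3 pools each), had a log2 fold change of 0.08 ± 0.23.

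The neuronal sodium channel gene scn8aa was the sodium pore gene with the most counts. Its level was 67.1, 78.9 and 46.6 CPM in PCB-11 replicates 1, 2 and 3, against 57.1, 63.3 and 53.8 CPM in the DMSO replicates. The PCB-11 pools held both the highest and the lowest of the 6 values (log2 fold change 0.14 ± 0.17), and without PCB-11 replicate 2 the fold change was -0.03. The other pore genes were scn12aa (0.20 ± 0.18), scn1lab (0.12 ± 0.20), scn8ab (-0.07 ± 0.19) and scn12ab (-0.20 ± 0.39), which RefSeq (assembly GRCz12tu) lists as scn5lab, a sodium channel of the heart. All 4 had groups that overlapped. The eighth, scn1a, had 1 to 10 counts per pool and was not tested.

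The beta subunits of the sodium channels, single-pass membrane proteins that alter channel gating, split into 3 genes with higher and 3 with lower values. The level of scn3b was 19.5, 16.2 and 14.5 CPM in PCB-11 replicates 1, 2 and 3, against 14.3, 13.96 and 14.3 CPM in the DMSO replicates. Its PCB-11 pools lay above the DMSO pools, replicate 3 by a narrow margin (log2 fold change 0.24 ± 0.13, edgeR adjusted p = 0.484). The level of scn4bb was 2.07, 1.90 and 2.00 CPM in PCB-11 replicates, against 2.92, 2.86 and 2.45 CPM in DMSO replicates 1, 2 and 3, without overlap (-0.46 ± 0.20, edgeR adjusted p = 0.412). Its duplicate scn4ba likewise had all PCB-11 pools below all DMSO pools, at 2.56 ± 0.11 CPM in PCB-11 and 3.29 ± 0.22 CPM in DMSO (SD, n = 3 each), with a log2 fold change of -0.36 ± 0.18 and 41 to 67 counts per pool. Log2 fold changes of the other 3 were 0.14 ± 0.13 for scn1ba, 0.12 ± 0.14 for scn1bb and -0.36 ± 0.35 for scn2b.

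In skeletal muscle, the calcium channel of the transverse tubule (the dihydropyridine receptor) senses the action potential and opens the calcium stores. Its pore subunit is encoded by cacna1sa and cacna1sb, and its partners by cacnb1, cacna2d1a and the gamma subunit gene cacng1a. The level of cacna1sb was 60.8, 38.3 and 87.3 CPM in PCB-11 replicates 1, 2 and 3, against 77.9, 88.4 and 73.0 CPM in the DMSO replicates. PCB-11 replicates 1 and 2 were below every DMSO pool, and replicate 3 was not (log2 fold change -0.36 ± 0.24). The duplicate cacna1sa had 12.0, 9.40 and 19.3 CPM in PCB-11 replicates 1, 2 and 3, against 17.1, 21.3 and 19.2 CPM in the DMSO replicates, the same order of the exposed pools (-0.50 ± 0.23, edgeR adjusted p = 0.434). For cacng1a, named after its values were seen, PCB-11 pools gave 39.8, 30.8 and 72.3 CPM, the lowest values and the highest of the 6, against 46.6, 51.1 and 50.5 CPM in the DMSO pools (-0.05 ± 0.26).

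A further gamma subunit gene, cacng6a, had the smallest p of all channel genes. Its level was 12.9, 11.2 and 17.7 CPM in PCB-11 replicates 1, 2 and 3, against 21.0, 20.6 and 22.6 CPM in the DMSO replicates. No PCB-11 pool reached a DMSO pool (log2 fold change -0.62 ± 0.16, 95% interval -0.99 to -0.25, edgeR adjusted p = 0.308). For cacna2d1a, the alpha2delta subunit, the level was 18.8, 13.9 and 21.5 CPM in PCB-11 replicates 1, 2 and 3, against 25.0, 24.2 and 20.8 CPM in the DMSO replicates, and the groups overlapped (-0.37 ± 0.16, edgeR adjusted p = 0.419). The beta subunit gene cacnb1 had a log2 fold change of -0.23 ± 0.17.

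**Figure D2:**
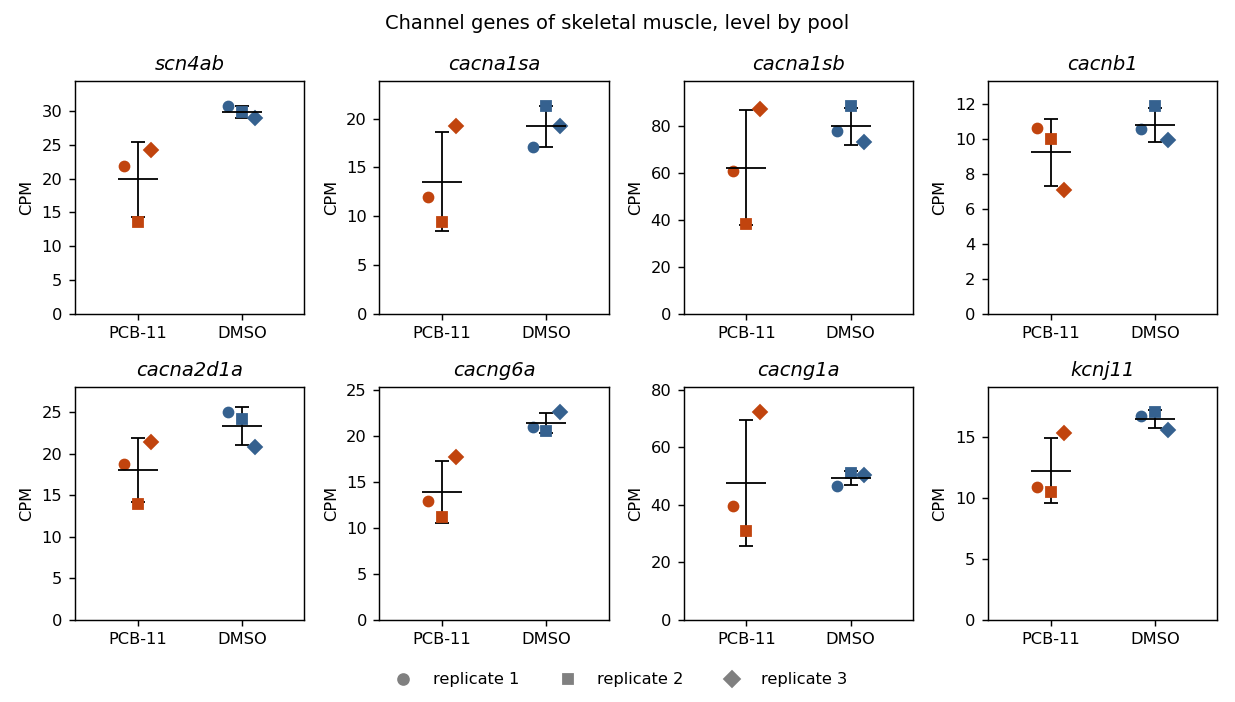
Level (CPM, axis from 0) of 8 channel genes of the skeletal muscle list in each PCB-11 and DMSO pool; symbols mark replicates, and the horizontal bar and whiskers are mean ± SD of 3 pools. PCB-11 replicates 1 and 2 are lower than all DMSO pools in every panel except cacnb1, and replicate 3 is higher than both in every panel except cacnb1. The 8 are a selection from the 12 tested genes of the list. Not shown are the 2 genes with higher values in PCB-11 and kcnq1, in which PCB-11 replicate 3 was the lowest pool. Also not shown is kcnj2a, which had the pattern of most panels.

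A list of channel genes known from skeletal muscle held 12 tested genes, 10 of them with lower values in PCB-11. Of these 10, kcnj2a and kcnq1 are also on the list of heart channel genes given below. The median log2 fold change of all 12 was -0.35, and 4 of the 12 were lower at an unadjusted p under 0.05 in edgeR (scn4ab, cacng6a, cacna2d1a and kcnj11), against 6.04% of all genes. The pool medians of the list, as log2 differences from the mean of the DMSO pools, were -0.31, -0.71 and -0.05 for PCB-11 replicates 1, 2 and 3 and -0.03, 0.05 and -0.02 for DMSO replicates 1, 2 and 3. The muscle marker genes had pool medians of -0.27, -0.27 and 0.30 for PCB-11 replicates 1, 2 and 3 and 0.07, -0.04 and -0.03 for DMSO replicates 1, 2 and 3. Of these 20 markers, 9 had higher and 11 had lower values in PCB-11. In edgeR 1 of them was lower at an unadjusted p under 0.05 and 0 higher (against 6.04% and 5.80% of all genes). The intestine markers had pool medians of -0.33, -0.72 and -0.13 for PCB-11 replicates 1, 2 and 3 and 0.00, -0.04 and 0.05 for DMSO replicates 1, 2 and 3, with summed levels of 2020 to 3372 CPM in PCB-11 and 3211 to 3468 CPM in DMSO pools. In the muscle channel list and the intestine markers, PCB-11 replicate 2 was the lowest of the exposed pools and replicate 3 the highest. That order also held for heart muscle and macrophage markers, in which replicate 3 had a positive median. Heart muscle markers had pool medians of 0.03, -0.44 and 0.28 for PCB-11 replicates 1, 2 and 3 and -0.07, 0.01 and 0.03 for DMSO replicates 1, 2 and 3. Those of macrophage markers were -0.69, -0.89 and 0.69 in PCB-11 and -0.66, 0.84 and 0.12 in DMSO, in the same order. The part of any of these tissues in the values of the channel genes was not tested.

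The outcome for this list leaned on PCB-11 replicate 3. Without that pool, 31 channel genes had an unadjusted p under 0.05, against 22.8% of all genes, and edgeR called 3 channel genes, cacng6a (-0.83, adjusted p = 0.023), cacna1sa (-0.84, adjusted p = 0.0411) and kcnj11 (-0.62, adjusted p = 0.0462), where 1.41% of all genes were called; all 3 are on the muscle list. The list's median was then -0.53, with 8 of 12 genes lower at an unadjusted p under 0.05, against 11.6% of all genes. Without PCB-11 replicate 2 its median was -0.25, with 2 of 12, against 4.69% of all genes lower in that fit.

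Among the calcium channel genes of neurons, cacnb4b, cacng2a, cacng2b and cacng8a had higher values in PCB-11 replicates 1 and 2 than in any DMSO pool. The gene cacnb4b encodes a beta subunit of neuronal calcium channels and had the most counts of all the channel genes. Its level was 140.6, 179.4 and 115.2 CPM in PCB-11 replicates 1, 2 and 3, against 126.3, 119.1 and 118.2 CPM in the DMSO replicates. Replicates 1 and 2 of PCB-11 exceeded every DMSO pool, and replicate 3 was the lowest of the 6 (log2 fold change 0.26 ± 0.15, edgeR adjusted p = 0.508).

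The paired genes cacng2a and cacng2b encode a gamma protein, stargazin in mammals, that also escorts glutamate receptors of the AMPA type. The level of cacng2b was 54.1, 69.9 and 43.2 CPM in PCB-11 replicates 1, 2 and 3, against 47.5, 42.7 and 44.6 CPM in the DMSO replicates (log2 fold change 0.31 ± 0.16). That of cacng2a was 57.2, 77.5 and 46.4 CPM in PCB-11 replicates 1, 2 and 3, against 52.8, 52.9 and 54.4 CPM in the DMSO replicates (0.18 ± 0.16, and -0.04 without PCB-11 replicate 2). In both genes the order of the exposed pools was replicate 2, 1 and 3 from high to low. Values of the related genes cacng8a (0.25 ± 0.20) and cacng7a (0.15 ± 0.23), of cacna2d2a (0.30 ± 0.27, and -0.04 without PCB-11 replicate 2) and of the presynaptic pore gene cacna1ba (0.18 ± 0.21) were also higher in PCB-11 and overlapped between groups. The pore genes cacna1c, of heart muscle (-0.14 ± 0.32), and cacna1da, of hair cells (-0.11 ± 0.24), and the beta subunit genes cacnb2a (-0.02 ± 0.20) and cacnb2b (-0.01 ± 0.19) had lower values and overlapped likewise. The calcium genes not tested were cacna2d2b, cacnb3a and cacnb4a, with 0 to 6 counts per pool.

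The potassium channel genes with the smallest p on the higher side were kcnip1b and then kcnip3b. Both encode KChIP proteins, calcium-binding subunits of the kcnd channels. The level of kcnip1b was 49.7, 69.1 and 42.1 CPM in PCB-11 replicates 1, 2 and 3, against 41.5, 39.2 and 41.7 CPM in the DMSO replicates. The PCB-11 pools were all higher, replicate 3 by less than the spread among DMSO pools (log2 fold change 0.39 ± 0.16, 95% interval 0.02 to 0.76, edgeR adjusted p = 0.411). The level of kcnip3b was 8.32, 11.5 and 8.43 CPM in PCB-11 replicates 1, 2 and 3, against 8.48, 6.67 and 6.78 CPM in the DMSO replicates, with overlap (0.37 ± 0.18), and its duplicate kcnip3a had a fold change of 0.18 ± 0.12. The kcnd genes, whose pores these proteins accompany, had fold changes of -0.24 ± 0.18 (kcnd1), -0.22 ± 0.26 (kcnd2) and -0.10 ± 0.22 (kcnd3).

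**Figure D3:**
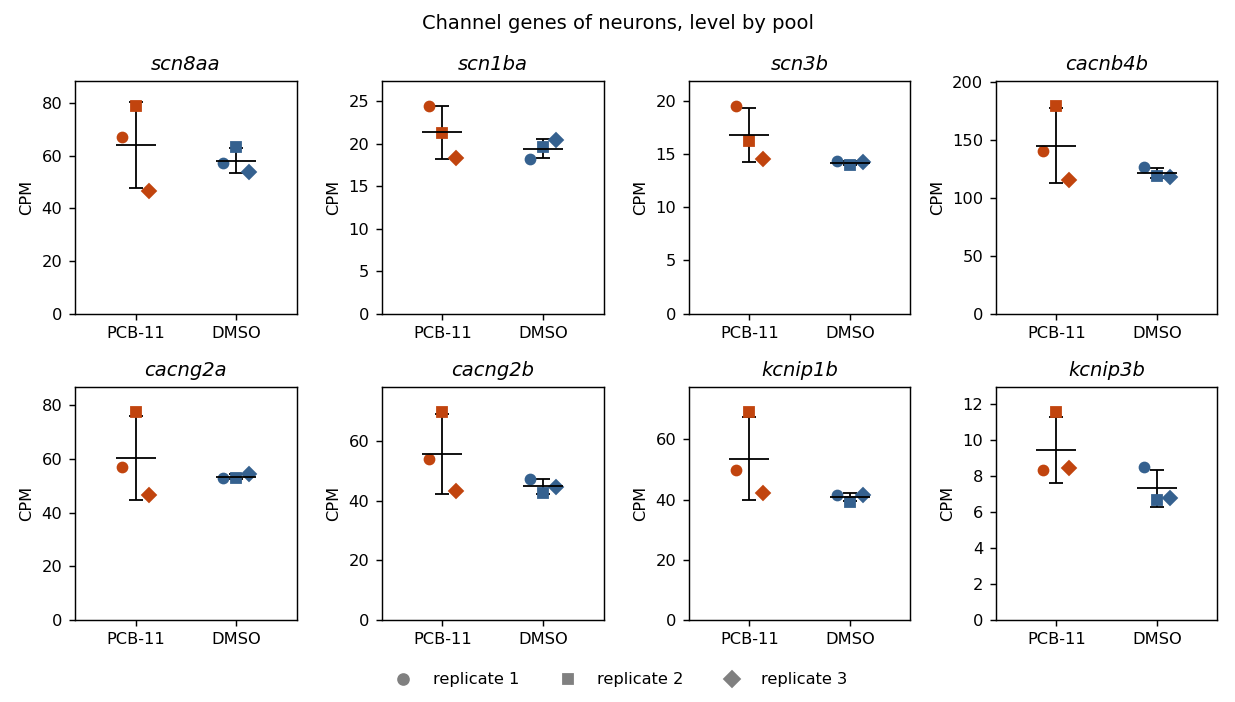
Level (CPM, axis from 0) of 8 channel genes of the neuron list in each PCB-11 and DMSO pool; symbols mark replicates, and the horizontal bar and whiskers are mean ± SD of 3 pools. The PCB-11 pools are spread more widely than the DMSO pools in all 8 panels, with PCB-11 replicate 2 highest in 6 of them. The 8 are a selection, all with higher mean values in PCB-11, whereas 12 of the 27 tested genes of the list had lower values. Over the 27, the SD of log2 CPM was larger in PCB-11 for 21, and PCB-11 replicate 2 was highest in 11.

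The pore subunits of the voltage-gated potassium channels (kcna, kcnc, kcnd, kcnh and kcnq) gave a median log2 fold change of -0.10 over 17 tested genes. None of them had an unadjusted p under 0.05 in edgeR, against 11.8% of all genes. PCB-11 replicate 3 was the lowest of the 6 pools in 11 of the 17, a position it held in 20.8% of all genes. The class had pool medians of 0.12, 0.08 and -0.60 for PCB-11 replicates 1, 2 and 3 and 0.13, -0.01 and -0.05 for DMSO replicates 1, 2 and 3. Without PCB-11 replicate 3 the class median was 0.10, of the opposite sign, and without each other pool in turn it ran from -0.24 to -0.03.

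In this class the kcnc genes, known from fast-spiking neurons, had fold changes of 0.13 ± 0.20 for kcnc1a, -0.09 ± 0.19 for kcnc1b, -0.05 ± 0.25 for kcnc2, -0.10 ± 0.23 for kcnc3a, -0.59 ± 0.47 for kcnc3b and 0.19 ± 0.23 for kcnc4. All 6 had groups that overlapped. The level of kcna6a, of the Shaker-related channels, was 3.87, 3.99 and 4.90 CPM in PCB-11 replicates 1, 2 and 3, against 4.99, 5.47 and 6.11 CPM in the DMSO replicates. The groups did not overlap, by a margin smaller than the spread within either (-0.38 ± 0.17, edgeR adjusted p = 0.424). The other tested Shaker-related gene, kcna2b, had all PCB-11 pools higher, on 13 to 21 counts per pool (0.38 ± 0.28, edgeR adjusted p = 0.581). Of the 17 genes of the class, 1 had all PCB-11 pools above all DMSO pools (against 10.0% of all genes). Another 2 had them all below (against 9.35%). The genes of cardiac repolarization kcnh6a, kcnh2a and kcnq1 had fold changes of 0.15 ± 0.14, -0.11 ± 0.24 and -0.32 ± 0.21.

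The silent subunits, which form no channel alone and modify others, had a median of 0.01 over 5 tested genes. The level of kcnv2b, a partner of photoreceptor potassium channels, was 9.14, 11.4 and 9.64 CPM in PCB-11 replicates 1, 2 and 3, against 8.25, 8.96 and 7.85 CPM in the DMSO replicates. All PCB-11 pools were higher (log2 fold change 0.26 ± 0.14, edgeR adjusted p = 0.467). The photoreceptor markers had pool medians of -0.31, 0.15 and -0.25 for PCB-11 replicates 1, 2 and 3 and 0.16, -0.04 and -0.15 for DMSO replicates 1, 2 and 3.

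The calcium-activated channels are built from kcnma1a, the large-conductance pore, and kcnn1a and kcnn1b, small-conductance pores, with fold changes of -0.04 ± 0.21, 0.18 ± 0.22 and 0.12 ± 0.22. The level of kcnmb2, an accessory subunit of the large-conductance channel, was 1.55, 1.54 and 2.53 CPM in PCB-11 replicates 1, 2 and 3, against 2.64, 3.44 and 2.80 CPM in the DMSO replicates. The groups did not overlap (-0.66 ± 0.26, edgeR adjusted p = 0.399), on 25 to 66 counts per pool.

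The inward rectifiers had the lowest class median. They let potassium in more readily than out and hold the resting potential, and the kcnj8 and kcnj11 products form the pore of channels closed by ATP. Of the 12 tested genes, 11 had lower values in PCB-11, and the median log2 fold change was -0.37. The 12 include 6 neighbouring copies, kcnj1a.1 to kcnj1a.6, between which reads may be shared. The counts and medians of the class may therefore repeat the same locus. The pool medians of the class were -0.52, -0.61 and 0.00 for PCB-11 replicates 1, 2 and 3 and -0.05, 0.16 and -0.06 for DMSO replicates 1, 2 and 3. Of the 12, 2 were lower at an unadjusted p under 0.05, against 6.04% of all genes. Without PCB-11 replicate 3 the median was -0.57, with 7 of 12 lower at that level (against 11.6% of all genes) and 1 higher (against 11.3%). Without DMSO replicate 2 the median was -0.23, with 0 of 12 lower at that level, against 2.82% of all genes.

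The level of kcnj8 was 1.81, 1.29 and 1.63 CPM in PCB-11 replicates 1, 2 and 3, against 2.35, 2.92 and 2.34 CPM in the DMSO replicates. No PCB-11 pool reached a DMSO pool (log2 fold change -0.68 ± 0.23, edgeR adjusted p = 0.366), on 21 to 56 counts per pool. The level of kcnj11 was 10.9, 10.5 and 15.4 CPM in PCB-11 replicates 1, 2 and 3, against 16.7, 17.1 and 15.6 CPM in the DMSO replicates, without overlap but with replicate 3 next to the DMSO pools (-0.42 ± 0.16, edgeR adjusted p = 0.388). Its relative kcnj11l was the single rectifier gene with a higher value, at 32.3, 36.5 and 24.2 CPM in PCB-11 replicates 1, 2 and 3, against 27.1, 29.4 and 24.9 CPM in the DMSO replicates (0.19 ± 0.15). The level of kcnj2a, of heart and muscle, was 13.8, 9.64 and 17.2 CPM in PCB-11 replicates 1, 2 and 3, against 17.4, 17.7 and 16.8 CPM in the DMSO replicates (-0.35 ± 0.19).

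The other rectifiers include 6 neighbouring copies, kcnj1a.1 to kcnj1a.6, related to the renal channel ROMK of mammals. In RefSeq (assembly GRCz12tu) they lie in 1 stretch that holds 7 protein-coding genes, so reads may be shared or lost between copies and single values are uncertain. Fold changes of the 6 were -0.05 ± 0.16, -0.28 ± 0.39, -0.46 ± 0.34, -0.42 ± 0.25, -0.34 ± 0.24 and -0.39 ± 0.33 in the order of their numbers. The level of kcnj1a.5 was 5.32, 6.94 and 9.59 CPM in PCB-11 replicates 1, 2 and 3, against 6.99, 11.1 and 9.43 CPM in the DMSO replicates, and DMSO replicate 1 lay with the lower PCB-11 pools. The values of kcnj1b (-0.04 ± 0.21) and kcnj13, a gene of pigment pattern in zebrafish (-0.57 ± 0.37, 6 to 21 counts per pool), were lower and overlapped.

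Among the background channels the median was -0.13 over 10 tested genes, with none at an unadjusted p under 0.05 in edgeR (against 11.8% of all genes). The level of kcnk6, the gene of this class with the most counts, was 28.8, 21.1 and 34.6 CPM in PCB-11 replicates 1, 2 and 3, against 28.7, 32.2 and 31.0 CPM in the DMSO replicates (log2 fold change -0.12 ± 0.16, and 0.05 without PCB-11 replicate 2). Fold changes were 0.31 ± 0.21 for kcnk15 and -0.47 ± 0.30 for kcnk1b. The potassium genes not tested were kcnh5a, kcnk3a, kcnk10b, kcnk13b and kcns3b, with 0 to 11 counts per pool.

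The 84 genes varied more among the PCB-11 pools than among the DMSO pools, as most genes did. The SD of log2 CPM was larger in PCB-11 for 66 of the 84 (78.6%), against 73.7% of all genes, with median SDs of 0.36 in PCB-11 and 0.16 in DMSO for the channel genes and 0.19 in PCB-11 and 0.11 in DMSO for all genes. Of the 6 pools, PCB-11 replicate 3 was lowest in 32 of the 84 genes (38.1%, against 20.8% of all genes). It was highest in 8, against 2746 of all 12960 genes. PCB-11 replicate 2 was lowest in 20 (23.8%, against 28.7% of all genes) and highest in 24, against 4002 of all 12960 genes. By family, PCB-11 replicates 1, 2 and 3 had medians of 0.18, 0.06 and -0.31 for sodium genes, against -0.02, 0.06 and -0.10 in the DMSO replicates. For calcium genes they were 0.10, 0.15 and -0.20 in PCB-11, against 0.01, 0.05 and -0.11 in DMSO replicates 1, 2 and 3, and for potassium genes -0.03, -0.02 and -0.12 in PCB-11, against 0.00, 0.05 and -0.04 in DMSO. PCB-11 replicate 3 was the lowest of the exposed pools in all 3 families.

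**Figure D4:**
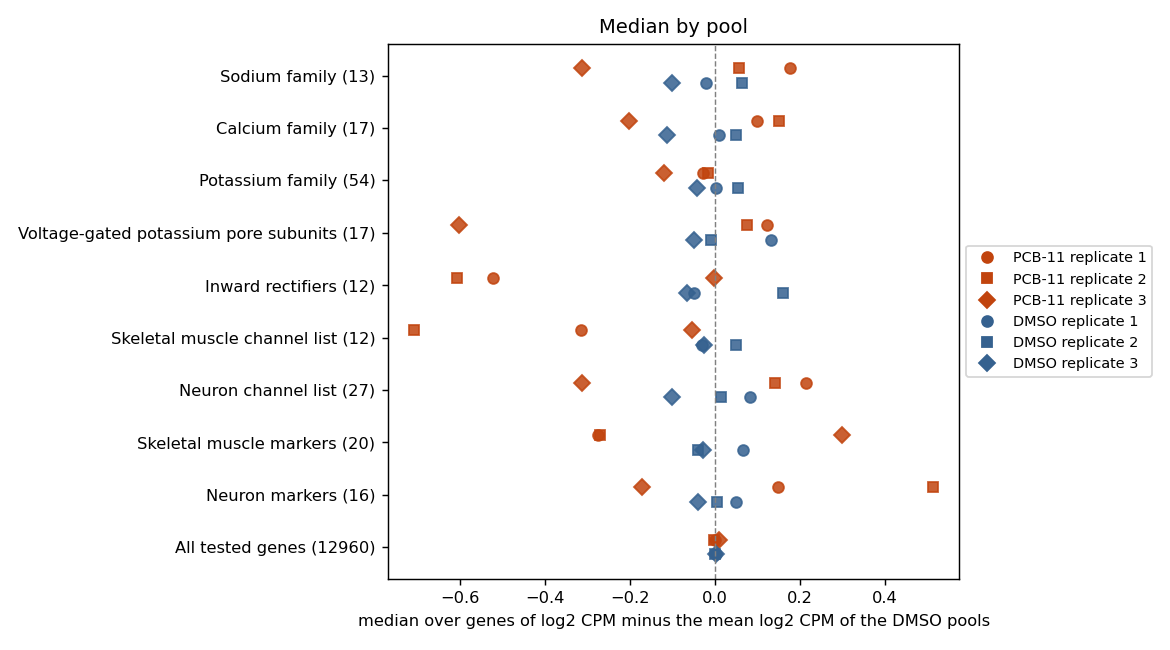
Median over genes of the log2 CPM difference from the mean of the DMSO pools, by pool (x axis, log2 units), for the channel families, 2 potassium classes, 2 channel lists, 2 marker lists and all tested genes, with the number of genes in parentheses. PCB-11 replicate 3 lies at -0.31 for the neuron channel list and at 0.30 for the muscle markers, and DMSO pools lie within 0.16 of 0 in all 10 sets.

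A list of channel genes known from neurons held 27 tested genes, 15 with higher and 12 with lower values in PCB-11, and a median log2 fold change of 0.13. Its pool medians were 0.21, 0.14 and -0.31 for PCB-11 replicates 1, 2 and 3 and 0.08, 0.02 and -0.10 for DMSO replicates 1, 2 and 3. The neuron markers had pool medians of 0.15, 0.51 and -0.17 for PCB-11 replicates 1, 2 and 3 and 0.05, 0.01 and -0.04 for DMSO replicates 1, 2 and 3. Of the 16 tested markers, 11 had higher and 5 had lower values in PCB-11. In edgeR 0 of them had an unadjusted p under 0.05 (against 11.8% of all genes). The part of the neuron markers in the channel values was not tested. In the fit of all pools 1 of the 27 was higher and 1 lower at an unadjusted p under 0.05, against 5.80% and 6.04% of all genes. The median of the neuron channel list was 0.30 without PCB-11 replicate 3, with 10 of 27 genes higher at that level (against 11.3% of all genes) and 0 lower (against 11.6%). It was -0.04 without PCB-11 replicate 2, with 0 higher (against 4.40%) and 0 lower (against 4.69%). It was -0.0032 without PCB-11 replicate 1, with 0 higher (against 5.81%) and 2 lower (against 7.26%), and 0.03 to 0.14 without a DMSO pool.

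The remaining channel lists gave medians of -0.13 for heart (10 tested), -0.04 for retina and hair cell (7 tested) and -0.28 for epithelium, kidney and glia (11 tested). Values were higher in PCB-11 for 2, 1 (kcnv2b) and 1 of their genes and lower for 8, 6 and 10, in the same order. In the last list 11 of 17 entries matched, all of them kcnj1 or kcnk genes, with the 6 neighbouring kcnj1a copies among them. The glial entries kcnj10a and kcnj10b matched no gene, so the list's median largely repeats the kcnj1 genes given above and does not cover them. On leaving out single pools the heart median ran from -0.28 to 0.03, positive without PCB-11 replicate 3, and that of retina and hair cell from -0.25 to 0.16, positive without PCB-11 replicate 3 or DMSO replicate 2. The epithelium, kidney and glia median ran from -0.39 without PCB-11 replicate 3 to -0.15 without PCB-11 replicate 1. Of these lists, 1 heart gene (kcnj8) and 1 retina and hair cell gene (kcnmb2) were lower at an unadjusted p under 0.05, against 6.04% of all genes. None was higher at that level, against 5.80% of all genes.

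Both copies of a duplicated gene were tested in 15 pairs whose symbols differ by a final a or b, and the 2 copies had fold changes of the same sign in 10 pairs. The pair with the widest gap in fold change was scn4aa (0.08 ± 0.23) and scn4ab (-0.58 ± 0.18). Whether copies of a pair differed was not tested.

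Partners and relatives of the channels were counted from a list that includes sodium pumps, calcium pumps and exchangers, calmodulins, junction proteins and other channels. Of 50 tested, edgeR called 0, with 3 lower (against 6.04% of all genes) and 0 higher (against 5.80%) at an unadjusted p under 0.05, and the median log2 fold change was 0.03. The level of jph1a, a junctophilin that ties the transverse tubule to the calcium store, was 4.49, 1.96 and 2.11 CPM in PCB-11 replicates 1, 2 and 3, against 6.88, 7.45 and 4.74 CPM in the DMSO replicates. The groups did not overlap, although PCB-11 replicate 1 and DMSO replicate 3 lay close (-1.14 ± 0.32, edgeR adjusted p = 0.317). Its duplicate jph1b, at 112.7 ± 38.9 CPM in PCB-11 and 142.2 ± 11.2 CPM in DMSO (SD, n = 3 pools each), overlapped between groups (-0.33 ± 0.21). So did a further junctophilin gene, jph2 (-0.22 ± 0.25). The level of atp1a1a.4, a sodium pump subunit, was 526.2, 396.3 and 560.8 CPM in PCB-11 replicates 1, 2 and 3, against 628.8, 621.0 and 617.3 CPM in the DMSO replicates (-0.33 ± 0.14), with all PCB-11 pools lower. The calcium pump gene atp2b4 had a fold change of -0.53 ± 0.19 and the pump gene atp1a2a one of -0.43 ± 0.22, and both overlapped between groups. Without PCB-11 replicate 3 edgeR called atp1a2a (adjusted p = 0.0456), where 1.41% of all genes were called. On the higher side were fgf13a and fgf13b, whose products bind sodium channels (0.26 ± 0.11 and 0.26 ± 0.13), and the calmodulin genes calm1a and calm1b (0.25 ± 0.14 and 0.26 ± 0.15). All PCB-11 pools were higher than all DMSO pools in fgf13a, calm1a and calm1b, and fgf13b overlapped. Of the 50 genes, 4 had all PCB-11 pools above all DMSO pools (8%, against 10.0% of all genes). Another 2 had them all below (4%, against 9.35%).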

How the data were processed

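Poly(A) RNA of 6 pools was measured, 3 of PCB-11 and 3 of DMSO, grouped by sample title. The deposited tables hold whole-number read counts per gene symbol, made by the authors; the submitters' processing notes name danRer7 and Cufflinks, while aligner, counter, strand setting and gene models were not given in the sources used here. Reads outside genes (31.4% to 39.1% of a pool) and ambiguous reads (0.379% to 0.429%) stayed out of library sizes and tests. The 95% Wilson interval of the share outside genes in PCB-11 replicate 2 ran from 39.0982% to 39.1358%, for counting error only.

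The fits used edgeR 4.0.16 (R 4.3.3) with its default expression filter, TMM scaling, robust quasi-likelihood dispersions, group as sole term, two-sided F tests and Benjamini-Hochberg adjustment over 12960 genes. Standard errors were derived from the F statistic, and levels are CPM after TMM scaling. Pool medians used log2 CPM with a prior count of 2. Alternatives were other scalings and filters, DESeq2 1.42.0, limma-voom (limma 3.58.1), a block for replicate number, and omission of each pool in turn. Nothing in the labels ties pools to separate clutches or exposures, so p-values cover only the spread between these samples, which may be technical. Every pair of pools differed by more than counting error.

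The members and lists were chosen with earlier results of these data known. Of 326 list entries, 232 matched a symbol, 8 through a RefSeq synonym (assembly GRCz12tu, used for names and neighbours alone). Named genes are those with the smallest p in each direction or the most counts in each family, and those with the smallest p in each list; further genes were named to complete their class after their values were seen. Figures were drawn with matplotlib 3.10.9. The tables give no transcript lengths, so levels were not compared between genes.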

Additional observations from a re-analysis of the deposited data

How the results depend on the processing

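No channel gene was called with all pools under any scaling, filter or tool tried, and none on leaving out a pool other than PCB-11 replicate 3. Leaving out single pools gave 0 to 3 called channel genes, 2 to 31 channel genes at an unadjusted p under 0.05 (against 5.59% to 22.8% of all genes) and medians of -0.03 to 0.14 for sodium, -0.06 to 0.14 for calcium and -0.15 to -0.04 for potassium genes. Over all genes, 5 were called higher and 1 lower; the higher count was 3 with upper-quartile scaling, 8 without a filter, 59 in DESeq2, 0 in limma-voom and 0 to 55 on leaving out pools, and the lower count 51 in DESeq2, 0 in limma-voom and 0 to 129 on leaving out pools. With the replicate number as a block, edgeR called 20 genes higher and 6 lower and no channel gene; the deviations of same-numbered pools correlated with r of 0.256, -0.147 and 0.367. PCB-11 replicates 1 and 3 correlated best with the DMSO pool of their own number and replicate 2 did not, and the labels do not say that a number marks a shared batch, so the numbers were not taken as pairs. Of the 75 named genes, a count that leaves out kcna2b, jph1b and jph2, 26 had log2 fold changes that turned sign on leaving out some single pool. Over these fits the sodium genes among them ran as scn12ab (-0.471 to 0.292), scn1lab (-0.00321 to 0.326), scn4aa (-0.0228 to 0.217), scn8aa (-0.0303 to 0.33) and scn8ab (-0.213 to 0.122). The calcium genes ran as cacna1c (-0.418 to 0.144), cacna1da (-0.369 to 0.11), cacna2d2a (-0.0372 to 0.501), cacnb2a (-0.17 to 0.158), cacnb2b (-0.15 to 0.166), cacng1a (-0.483 to 0.18) and cacng2a (-0.0432 to 0.335), and cacnb2b was 0.00191 with plain library sizes. The potassium genes ran as kcnc1a (-0.0464 to 0.334), kcnc1b (-0.284 to 0.0985), kcnc2 (-0.197 to 0.188), kcnc3a (-0.292 to 0.145), kcnd2 (-0.377 to 0.052), kcnd3 (-0.233 to 0.12), kcnh2a (-0.262 to 0.0376), kcnj1a.1 (-0.118 to 0.00244), kcnj1a.2 (-0.56 to 0.124), kcnj1b (-0.178 to 0.0974), kcnk6 (-0.29 to 0.0477), kcnma1a (-0.254 to 0.166), kcnn1a (-0.0315 to 0.42) and kcnn1b (-0.0177 to 0.239). None of the 75 turned sign under the other scalings, filters, tools or the block. The 9 untested channel genes had 0 to 11 counts per pool.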
